A study of Homo sapiens with 6 samples.

Results

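The CENP-HIKM and CENP-LN modules are subcomplexes of the constitutive centromere-associated network (CCAN), the protein assembly that stays on centromeric chromatin through the cell cycle. CENP-HIKM holds 4 subunits (CENPH, CENPI, CENPK and CENPM) and CENP-LN holds 2 (CENPL and CENPN). The 6 genes were chosen by name, and all 6 were found among the 13008 genes of the authors' deposited comparison table, the 13161 genes with normalised counts and the 13153 genes tested. The cells were hTERT-RPE1, a telomerase-immortalised human line of retinal pigment epithelial origin, in the derivative named Tet-FLAG-FOXM1c-hTERT-RPE1. FOXM1 is a forkhead transcription factor best known for activating genes of G2 and mitosis. The 3 dox libraries are labelled FOXM1 overexpression and doxycycline, at 1 µg/mL every 24 h over 48 h. The 3 no dox libraries have the same cell line label with the genotype label WT and the treatment label none. All 6 thus share the line name, the labels do not say whether the line is a clone or a pool, and no library is labelled as doxycycline-treated cells without the transgene. Doxycycline and induced FOXM1 therefore cannot be told apart.

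In background terms, CENP-LN is a part of the network that touches the CENP-A nucleosome. CENP-N recognises CENP-A, the histone H3 variant that marks centromeres, and CENP-L is its partner, with which it forms a dimer. CENP-HIKM connects CENP-C and CENP-LN with the branch that holds CENP-T, and through CENP-C and CENP-T the network recruits the outer kinetochore, the KMN network that binds spindle microtubules. CENP-H and CENP-K are coiled-coil proteins, CENP-I is a helical-repeat protein, and CENP-M is a small protein with the fold of a GTPase that does not bind GTP.

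The labels held for the induced gene: the normalised count of FOXM1 was 69032 ± 5205 with doxycycline and 4562 ± 390.2 without (SD, n = 3 each). Library totals, recovered from the deposited CPM values, ran from 15094498 to 49882123 reads, and in each replicate number the dox library was the deeper one. Of the epithelial markers, KRT8 (up to 33.4 FPKM) and KRT18 (34.6 to 65.2 FPKM) were present and were higher in dox only in the fit that holds the replicate number as a block, called the replicate block here (log2 changes of 0.29 and 0.32, limma adjusted p = 0.00111 and 0.000804), while EPCAM was listed at 0 in all libraries and CDH1 did not exceed 0.0106 FPKM. Of 7 pigment epithelium markers MITF (2.06 to 2.23 FPKM) and OTX2 (1.91 to 3.14 FPKM) were present, while RPE65 (at most 0.220 FPKM), BEST1, RLBP1, TYR and PMEL were near 0. Nothing in the labels says that the samples of a group came from separate cultures. The p-values then measure only how far these samples lie apart, a spread that may be technical.

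The promoter sequences of 3 members, CENPI, CENPK and CENPN, were matched by symbol in RefSeq windows (GRCh38.p14) from 250 bases before to 50 bases after the gene start. CENPH, CENPL and CENPM were not matched. The stretches shown are those that hold the matches nearest to the start in one member that was lower in dox in all 3 replicate pairs (CENPN) and in the member that did not (CENPK). They are printed in lower case on the gene's own strand, with the matches to CCAAT (or ATTGG, its reverse complement) and TTTGAA in capitals. The CENPK line is the whole run without an annotated exon between CENPK and its divergent neighbour PPWD1 (chr5:65563172-65563235, minus strand), and the CENPN line spans the gene start (chr16:81007199-81007228, plus strand).
CENPK: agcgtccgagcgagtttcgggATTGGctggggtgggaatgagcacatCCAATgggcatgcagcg
CENPN: ggaactgcaATTGGtggcTTTGAAggcgcg

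The CENPN window held the CCAAT box, the motif of the factor NF-Y, in reverse orientation from base -6 and TTTGAA, the core of the cell cycle genes homology region (CHR), from base 4. Position 1 is the start of the RefSeq window's gene model and -1 the base before it, and all 30 bases of the CENPN stretch lie in an annotated exon of GENCODE 29. The CENPK window held 3 CCAAT boxes, from bases -99 (outside the stretch shown), -46 and -20, and no CHR letters. The CENPI window, of a gene that was also lower in dox in all 3 replicate pairs, held none of the strings searched on both strands. These were CCAAT, which 34.6% of 35116 windows of this length hold, the CHR strings TTTGAA and TTCGAA (16.4%), the E2F strings TTTCCCGC, TTTGGCGC, TTTCGCGC and TTTGCCGC (3.31%), and the forkhead strings TGTTTAC and TGTTTGC (7.17%). A CCAAT box together with CHR letters was found in 6.38% of windows. None of the 3 windows held the E2F or forkhead strings. Whether the matches bear on the changes of these genes was not tested.

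Among the 6 genes the largest difference was a fall of CENPM, the small GTPase-like subunit of CENP-HIKM. Its normalised count, the authors' depth-equalised value, was 359.5, 430.1 and 388 in replicates 1, 2 and 3 of the dox group, while the no dox libraries had 764, 648 and 614 in the same order. Every dox library lay well below every no dox library, and the highest dox value was replicate 2. The means were 392 ± 35.5 with and 675 ± 78.9 without doxycycline (SD, n = 3 each). On the log2 scale CENPM had a change of -0.78 (SE 0.12), by which its level fell by 41.7%. The limma adjusted p over all genes was 0.0449, under the threshold of 0.05 for a call. The difference on the log2 scale was -1.09 in pair 1, -0.59 in pair 2 and -0.66 in pair 3, a pair being the dox and no dox libraries of the same replicate number. With the replicate number as a block in the fit the limma adjusted p was 0.000556. CENPM (ENSG00000100162) lies on chromosome 22 from 42334725 to 42343168 of hg19, on the minus strand. In the authors' deposited table its log2 fold change was -0.77 with an adjusted p of 0.000276. It alone of the 6 carried their flag for a fall, which 106 of all 13008 genes carried. No flagged gene had an adjusted p above 0.00982 in that table. Leaving out any 1 of the 6 libraries ended the call without the block (limma adjusted p from 0.0751 without dox replicate 1 to 0.178 without no dox replicate 2), while the change stayed between -0.85 and -0.69.

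CENPI, the helical-repeat subunit of CENP-HIKM on chromosome X (100353178 to 100418670, plus strand, ENSG00000102384), had normalised counts of 509.9, 602 and 616 in replicates 1, 2 and 3 of the dox group and 861, 873 and 751 in those of the no dox group. The groups did not overlap, and dox replicate 1 was the lowest library. Its log2 change was -0.52 (SE 0.11), with means of 576 ± 57.5 and 828 ± 67.0 (SD, n = 3 each). It missed the threshold without the block (limma adjusted p = 0.0866) and fell with it (limma adjusted p = 0.00226), with pairs at -0.75, -0.53 and -0.29.

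CENPH, a coiled-coil subunit on chromosome 5 (68485375 to 68506184, plus strand, ENSG00000153044), had normalised counts of 383, 607 and 548 in replicates 1, 2 and 3 of the dox group and 643, 755 and 659 in those of the no dox group. The groups were separated by less than the spread within dox, where replicate 1 was far below the other 2. The log2 change of -0.44 (SE 0.17) missed the threshold in the block-free fit (limma adjusted p = 0.332) and passed with the block (limma adjusted p = 0.00835). Pair 1 differed by -0.75, against -0.31 and -0.27 in pairs 2 and 3, and without dox replicate 1 the change was -0.25.

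CENPK, the coiled-coil partner of CENPH, was the exception among the 6. It lies on the same chromosome (64813593 to 64858998, minus strand, ENSG00000123219) and had normalised counts of 309.9, 509.7 and 372 in replicates 1, 2 and 3 of the dox group, against 419.9, 484 and 399.8 without doxycycline. The groups overlapped, since dox replicate 2 was the highest of all 6 libraries and dox replicate 1 the lowest. The log2 change was -0.16 (SE 0.18), with pairs at -0.44, 0.07 and -0.10, and it passed neither in the block-free fit (limma adjusted p = 0.818) nor with the block (limma adjusted p = 0.286). Without dox replicate 1 the value was 0.0075, without dox replicate 2 it was -0.35, and without no dox replicate 2 it was -0.08, so its direction depends on dox replicate 1.

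CENPN, the CENP-A-reading subunit of CENP-LN on chromosome 16 (81040103 to 81066719, plus strand, ENSG00000166451), had the highest counts of the 6 genes in every library. The dox libraries had 789.9, 859.9 and 849.8 normalised counts in replicate order, and the no dox libraries 1192, 1062 and 1143. The libraries of each group lay close together, with means of 833 ± 37.9 and 1132 ± 65.5 (SD, n = 3 each), and the groups were far apart relative to that spread. Its log2 change of -0.44 had the smallest SE of the 6, 0.08, with a limma adjusted p of 0.0687 without the block and 0.00135 with it. The pairs differed by -0.59, -0.30 and -0.43.

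CENPL, its partner in CENP-LN on chromosome 1 (173768688 to 173793858, minus strand, ENSG00000120334), had normalised counts of 513, 474 and 485 in replicates 1, 2 and 3 of the dox group and 742, 585 and 541 in those of the no dox group. The groups did not overlap, although no dox replicate 3 was not far above the dox libraries and no dox replicate 1 stood above the rest. Its log2 change was -0.33 (SE 0.13), with pairs at -0.53, -0.30 and -0.16. It missed the threshold in the block-free fit (limma adjusted p = 0.332), passed with the block (limma adjusted p = 0.0156), and was -0.20 without no dox replicate 1.

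**Figure D1:**
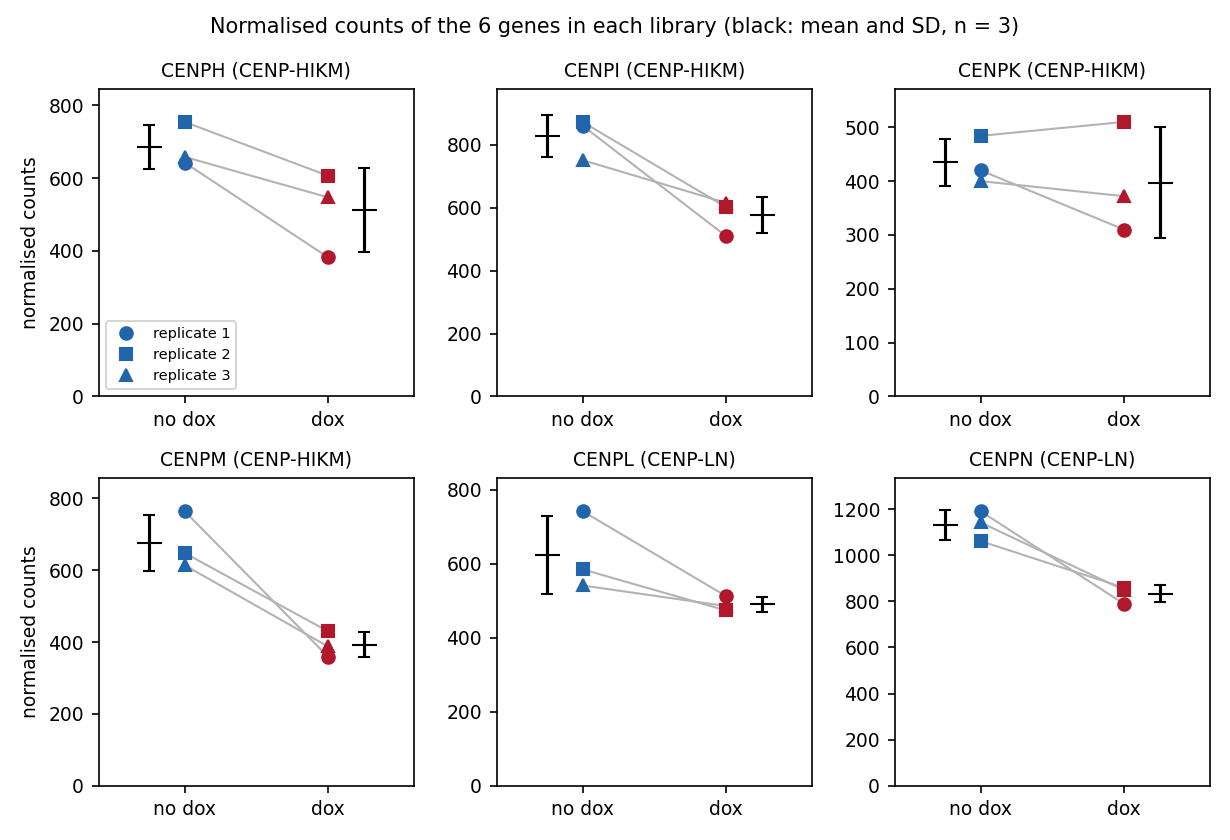
Normalised counts (vertical axis, from 0) of the 6 genes in no dox (blue) and dox (red) libraries, with grey lines joining libraries of the same replicate number and black marks giving the mean and SD (n = 3). The dox points lie below all no dox points for CENPH, CENPI, CENPM, CENPL and CENPN, while the CENPK groups overlap.

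From here on a gene is said to fall or rise in a fit when it was called lower or higher there. Read together, 1 of the 6 genes (CENPM) fell in this sense without the block, where 0.22% of all 13153 tested genes did. With the replicate block 5 of 6 fell and none rose, where 12.4% of all genes fell and 10.2% rose. The dox libraries lay wholly below the no dox libraries for 5 of 6 genes, against 10% of all genes, and 5 of 6 were lower in all 3 pairs, against 28.5%. All 6 mean changes were below 0, as were 50.6% of those of all genes. The median log2 change of the 6 genes was -0.44, beside -0.0022 over all tested genes. It was -0.67 in pair 1, -0.31 in pair 2 and -0.28 in pair 3. Leaving out both replicate 1 libraries took the block-free changes to -0.29 for CENPH, -0.41 for CENPI, -0.01 for CENPK, -0.63 for CENPM, -0.23 for CENPL and -0.37 for CENPN. With the block, 5 of the 6 fell without replicate 1 and without replicate 3 of both groups. Of all 13153 genes 2074 and 1007 fell in these 2 fits. Without replicate 2 the member count was 4, with 830 of all 13153 genes falling. CENPL missed the threshold there (limma adjusted p = 0.0652).

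The authors' deposited table gave an adjusted p under 0.05 to 3 of the 6, CENPM, CENPI (log2 fold change -0.52, adjusted p = 0.0173) and CENPN (-0.43, adjusted p = 0.0266), where 1.52% of all genes in it were called lower. On whole reads, recovered from the CPM values, the quasi-likelihood test of edgeR without the block called CENPM alone (adjusted p = 0.0468, with 0.192% of all genes lower). With the block edgeR called the same number as limma, 5 of 6, with 12% of all genes lower. DESeq2 without the block called CENPM, CENPI and CENPN (adjusted p = 1.53e-05, 0.00439 and 0.00241, with 2.34% of all genes lower). Between 200 and 1550 recovered reads stood behind each value of the 6 genes, the fewest for CENPK in no dox replicate 3.

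How far the subunits moved apart was read from the ratio of 2 members within each library, which does not depend on library scaling. The log2 ratio of CENPK to CENPM was -0.21, 0.25 and -0.06 with doxycycline in replicates 1, 2 and 3, and -0.86, -0.42 and -0.62 without. All 3 dox libraries thus lay above all 3 no dox libraries. The shift was 0.62, with pairs at 0.65, 0.67 and 0.56 (SD 0.06). Over the 15 pairs of members, 6 reached p = 0.1 in a two-sided exact permutation test with 20 possible assignments, the smallest p that 3 against 3 allows, and the Benjamini-Hochberg adjusted value was 0.25. No pair can therefore pass 0.05 in this design. The other 5 pairs at that p were CENPH to CENPK (-0.29), CENPI to CENPK (-0.37), CENPI to CENPM (0.26), CENPM to CENPL (-0.45) and CENPM to CENPN (-0.34). The ratio of the 2 CENP-LN subunits, CENPL to CENPN, shifted by 0.11 (pairs 0.06, 0.00052 and 0.27, exact permutation p = 0.4). Across the modules, CENPI to CENPN (-0.08), CENPH to CENPN (-0.0014) and CENPH to CENPL (-0.11) shifted about as little. CENPK to CENPN (0.29), CENPI to CENPL (-0.19) and CENPK to CENPL (0.18) shifted more, as did CENPM to CENPL and CENPM to CENPN.

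Levels of different genes can be compared only per length. In deposited FPKM, which divides by the summed exon width of all isoforms, the no dox order was CENPH (4.42 ± 0.519), CENPM (3.89 ± 0.458), CENPN (3.78 ± 0.144), CENPI (2.27 ± 0.238), CENPL (1.66 ± 0.281) and CENPK (0.952 ± 0.127), each as mean ± SD with n = 3. The library ranges of CENPH and CENPM overlapped, as did those of CENPM and CENPN, and the other neighbours in this order were separated. In dox the order was CENPH (3.38 ± 0.831), CENPN (2.84 ± 0.196), CENPM (2.32 ± 0.286), CENPI (1.61 ± 0.181), CENPL (1.34 ± 0.0438) and CENPK (0.890 ± 0.256), so CENPN stood above CENPM. CENPH and CENPN overlapped there, and the lowest CENPN and highest CENPM libraries were almost level (2.65 and 2.64 FPKM). The deposited widths are 3.81 (CENPI) to 8.98 (CENPK) times the length of the principal transcript of GENCODE 29. Per kilobase of that transcript the order was another one, with CENPM highest in both groups (23.8 ± 2.80 CPM in no dox and 14.2 ± 1.75 in dox). CENPI (8.66 ± 0.908 and 6.15 ± 0.689) and CENPK (8.55 ± 1.14 and 8.0 ± 2.30) were then lowest.

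**Figure D2:**
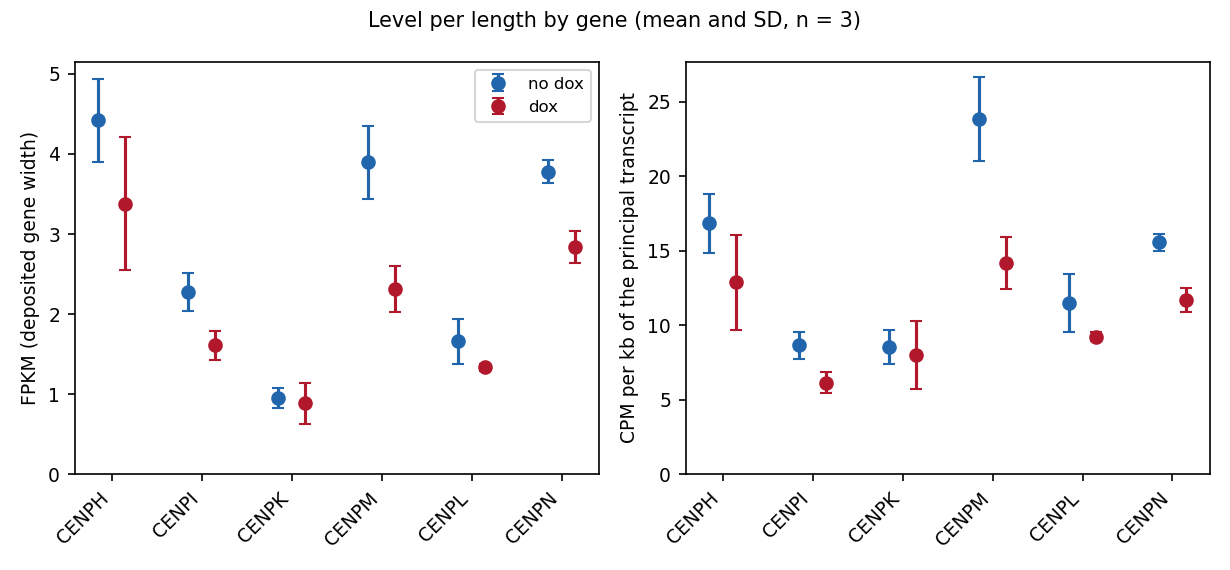
Level per length of each gene in no dox (blue) and dox (red) libraries as mean and SD (n = 3), in deposited FPKM on the left and as CPM per kilobase of the principal transcript on the right (both axes from 0). CENPH leads on the left and CENPM on the right, and CENPK is at 0.952 FPKM or below in both group means.

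Genes that share a start region or sequence with CENPK or CENPN were read beside them, since the sources used here do not say whether counting used the strand. PPWD1, a peptidyl-prolyl isomerase gene, starts 65 bases from CENPK on the other strand and had a log2 change of 0.35 (limma adjusted p = 0.309, and 0.00422 with the block). CENPK itself (-0.16, SE 0.18) passed in neither fit, so the 2 directions cannot be set against each other. CMC2 overlaps CENPN by 13773 bases on the other strand and had a change of -0.09 (limma adjusted p = 0.826, and 0.280 with the block). An intronic transcript annotated on the CENPN strand over 716 bases (ENSG00000261061) had a change of -0.60 and fell with the block only (limma adjusted p = 0.164 and 0.00670), and its reads and those of CENPN cannot be told apart with certainty.

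The other 10 CCAN genes were more mixed than the 6. None passed with limma without the block or with edgeR, while 4 were lower at an unadjusted limma p under 0.05 (7.06% of all genes, and 13% in either direction). DESeq2 called 3 lower (2.34% of all genes). With the limma block 5 fell (CENPP, CENPW, CENPO, CENPQ and CENPR) and 1 rose (CENPT), where 12.4% of all genes fell and 10.2% rose. Their median change was -0.20, and 7 of 10 were below 0. CENPP, a subunit of the CENP-OPQUR module, had 92.9, 90.2 and 111 normalised counts with doxycycline in replicates 1, 2 and 3 against 152, 161 and 175 without. Its change was -0.73 (SE 0.15, limma adjusted p = 0.0818, and 0.00188 with the block). CENPW, the histone-fold partner of CENPT, had a change of -0.43 (SE 0.11, limma adjusted p = 0.133, and 0.00748 with the block). Both lay in the range of the 6 members. Whether the 10 and the 6 genes differ was not tested.

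Upstream of CCAN, 5 genes for CENP-A, CENP-B and CENP-A loading had a median change of -0.23, which was -0.14 without no dox replicate 1. None passed with limma without the block, with edgeR or with DESeq2, and 1 was lower at an unadjusted limma p under 0.05 (7.06% of all genes). With the limma block CENPA, HJURP and CENPB fell and none rose, where 12.4% of all genes fell and 10.2% rose. HJURP, the CENP-A chaperone, had a change of -0.35 (SE 0.15, limma adjusted p = 0.377, and 0.00520 with the block). CENPB, the protein that binds the centromeric alpha-satellite box, had a change of -0.23 (SE 0.10, limma adjusted p = 0.396, and 0.0249 with the block). Downstream, the 10 KMN genes had a median change of -0.69, with 1 fall without the block (NDC80, -0.89, SE 0.14, limma adjusted p = 0.0480) and 7 with it. Of all genes 0.22% and 12.4% fell in these fits. The 7 were NDC80, NUF2, SPC24, SPC25, KNL1, DSN1 and ZWINT, the last a partner of KNL1. Without the block edgeR called none of them and DESeq2 all 7 (2.34% of all genes lower). SPC25 of the NDC80 complex had a change of -0.89 (SE 0.16, limma adjusted p = 0.0640, and 0.000826 with the block). The MIS12 complex genes were split. DSN1 (-0.48, limma adjusted p = 0.105, and 0.000955 with the block) was among the 7. MIS12 (-0.04), PMF1 (-0.05) and NSL1 (0.05) did not pass in either fit.

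**Figure D3:**
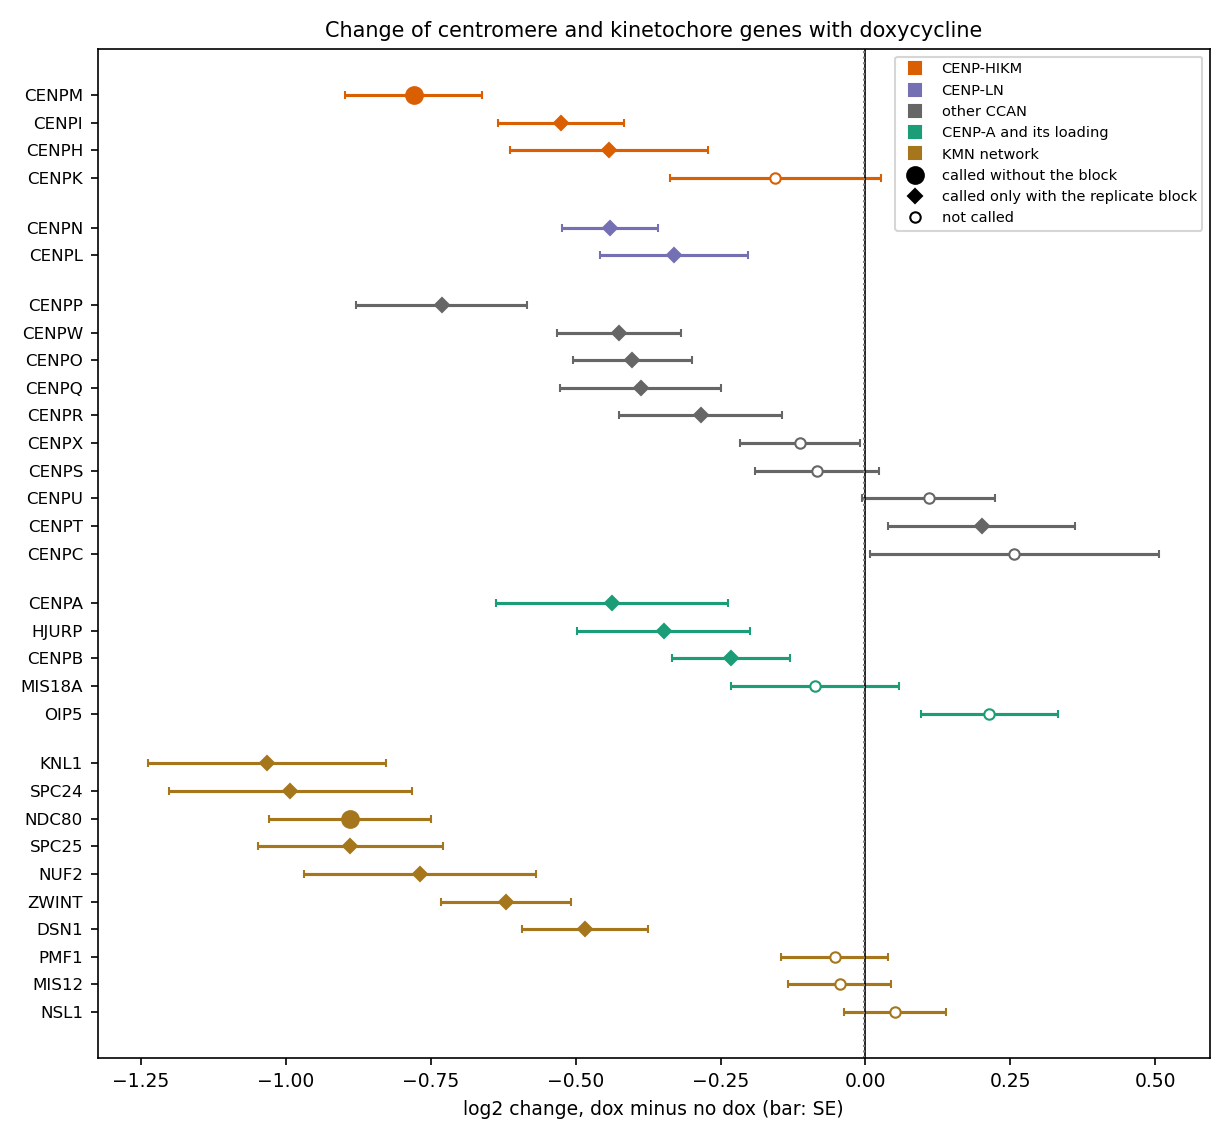
Log2 change from no dox to dox (horizontal axis, points with SE bars) of the 6 genes and of the other CCAN, CENP-A and KMN genes, with large circles for calls without the block, filled diamonds for calls with the replicate block only and open circles for no call. CENPM at -0.78 is the one large circle among the 6 genes, and CENPK at -0.16 the one open circle.

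Genes that mark cycling cells were read beside the members. Of 10 S-phase genes (median -0.39) none passed with limma without the block or with edgeR, and 6 were lower at an unadjusted limma p under 0.05 (7.06% of all genes). DESeq2 called 6 lower (2.34% of all genes) and 6 fell with the limma block (12.4% of all genes). TYMS (-0.73, SE 0.13) and RRM1 (-0.52, SE 0.10) had the smallest limma adjusted p without the block (0.0645 and 0.0650). Of 10 G2/M genes (median -0.35, or -0.17 without dox replicate 1) none passed with limma without the block or with edgeR. At an unadjusted limma p under 0.05, 4 were lower and 1 higher (929 and 781 of all 13153 genes). DESeq2 called 2 of the 10 lower (2.34% of all genes). With the limma block 7 fell, BUB1 (-0.63) and PLK1 (-0.52) among them, and CCNB2 (0.42) rose, while CCNB1 (0.04) and AURKA (-0.14) did not pass. In that fit 12.4% of all genes fell and 10.2% rose. The mean log2 level of these 20 genes was 11.14, 11.56 and 11.46 with doxycycline in replicates 1, 2 and 3 and 11.74, 11.75 and 11.61 without. The difference was -0.60, -0.19 and -0.15 in pairs 1, 2 and 3, so pair 1 differed most, as it did for all 6 members. In bulk RNA, fewer cells in these phases and less RNA per cell cannot be told apart, and the part of this shift in the members' values was not tested.

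Set against that 20-gene mean in the same library, CENPM had a relative change of -0.46 on the log2 scale, much alike over the pairs (-0.49, -0.40 and -0.51, SD 0.06). CENPI had a relative change of -0.21 (pairs -0.15, -0.34 and -0.13), and CENPH of -0.13 (pairs -0.15, -0.12 and -0.11, SD 0.02). CENPN stood at -0.13 and CENPL at -0.02, each with pairs of both signs. CENPK was higher relative to the mean in all 3 pairs (0.16, 0.27 and 0.05). Of these 6 relative values those of CENPM and CENPI reached the smallest possible exact two-sided permutation p of 0.1, which cannot pass 0.05. The 20 genes had log2 changes of their own, from -0.73 (TYMS) to 0.42 (CCNB2), so their mean is not a fixed reference.

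**Figure D4:**
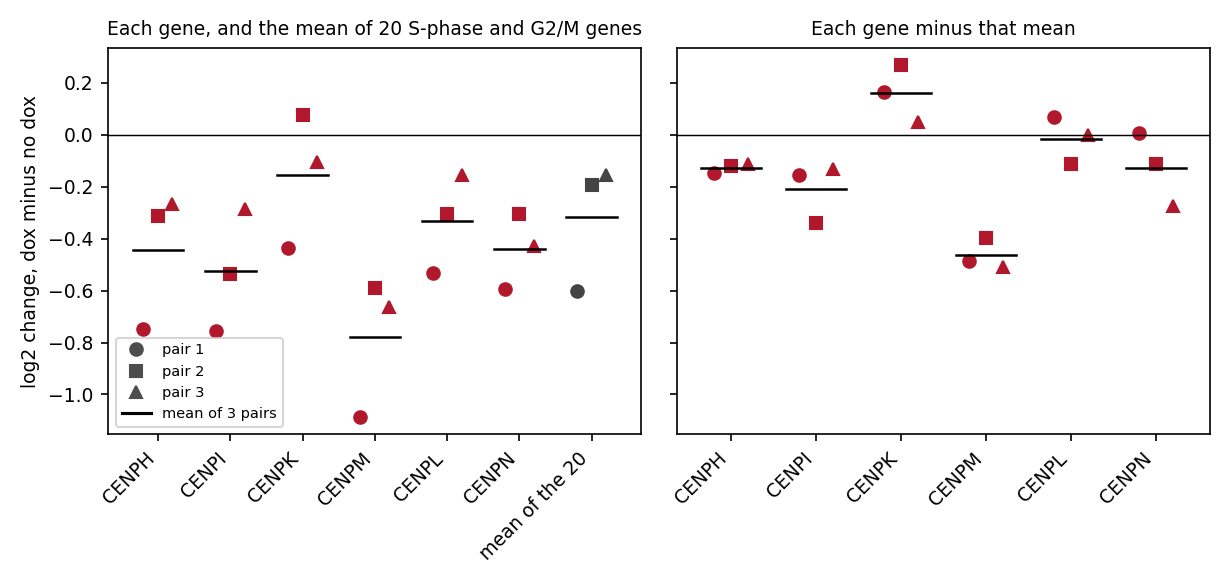
Log2 change from no dox to dox in each replicate pair (circle, square and triangle for pairs 1, 2 and 3, black line for their mean), for each gene and the mean of 20 S-phase and G2/M genes (grey) on the left, and for each gene minus that mean on the right. Pair 1 is lowest for all 6 genes on the left, while on the right CENPM sits between -0.51 and -0.40 in all 3 pairs and CENPK lies above 0.

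Likeness over single libraries is given as a description over 6 points that share group, replicate number and depth. Over the 15 pairs of members, Pearson's r of the log2 levels had a median of 0.78, from 0.11 for CENPK with CENPL to 0.98 for CENPM with CENPN. CENPM, CENPI and CENPN formed the closest trio (0.96 for CENPI with CENPM and 0.92 for CENPI with CENPN). CENPH was nearest to CENPI (0.88), followed by CENPK (0.82), CENPM (0.78) and CENPN (0.75), and was least like CENPL (0.39). CENPK was not close to CENPL, CENPN or CENPM, since 43.8%, 29.1% and 23.9% of all tested genes had a higher r with it than these, and 29.7% had a higher r with CENPH than CENPL did. Among 6576 other genes at or above the median level, those most like the mean of the 6 were ANLN (the cytokinesis scaffold anillin, r = 0.998), TPX2 (a spindle assembly factor, 0.996), PHF19 (a Polycomb-associated protein, 0.994), MCM4 (a subunit of the replicative helicase, 0.994) and ZWILCH (a kinetochore protein of the RZZ complex, 0.993). The log2 changes of these 5 genes lay between -0.65 for ANLN and -0.29 for ZWILCH, with limma adjusted p from 0.0688 to 0.186 without the block and at most 0.00662 with it. They were picked for likeness over the same 6 libraries, so their lower values in dox follow from the choice and are no separate evidence. The single most similar gene was HAT1 for CENPM (r = 0.998), FEN1 for CENPI (0.995), SMC2 for CENPH (0.998), BIRC5, which fell by 0.97 on the log2 scale (limma adjusted p = 0.0411), for CENPN (0.989), AKT1 for CENPL (0.994) and CAMSAP1 for CENPK (0.99). BIRC5 was picked in the same way, so its p-value is no separate evidence either. CAMSAP1 had a change of -0.01, and its normalised counts ran only from 1823 to 1910.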

How the data were processed

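Polyadenylated RNA from 3 dox and 3 no dox libraries was analysed, grouped by sample title. In the submitters' processing notes hg19 is the build, and bcl2fastq, Trimmomatic, TopHat and edgeR are the tools. Their settings and the use of strand are not given in the sources used here. The authors deposited normalised counts (a depth-equalised signal of unstated formula), FPKM, and a comparison table with CPM, log2 fold changes, a likelihood ratio score and p-values, per the file headers. Each CPM column consisted of whole multiples of 1 read (100% of values, tolerance 0.01), and these reads went into edgeR and DESeq2.

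Values were tested as log2(normalised count + 1) with two-sided limma-trend. A gene needed 10 or more normalised counts in 3 or more libraries, which 13153 of 13161 had. P-values were adjusted over these genes by Benjamini and Hochberg, with calls under 0.05. The scale understates changes of low genes. Same-numbered libraries deviated together (r = 0.745, 0.726 and 0.768 across genes), so the numbers were taken to pair them, and values with the replicate block stand beside the main ones. With all 6 libraries the fit leaves 4 residual degrees of freedom without the block and 2 with it. With so few, the limma p-values lean on the variance borrowed across genes, and more so where libraries were left out. Genes named were the 6 members, the 2 of smallest adjusted p in each list, neighbours and the most similar genes, and any others were named after their values were seen. Members and lists were chosen with earlier results of these data known. Some items of the lists and neighbours are not reported here. Fits were tested on simulated data. Alternatives are given in the closing section. Versions were limma 3.58.1, edgeR 4.0.16 and DESeq2 1.42.0 under R 4.3.3.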

Additional observations from a re-analysis of the deposited data

How the results depend on the processing

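Over 24 alternatives the changes of CENPH, CENPI, CENPM, CENPL and CENPN stayed below 0, and that of CENPK in 23. CENPK ranged from -0.35 without dox replicate 2 to 0.0075 without dox replicate 1. The pseudocount, the filter, TMM, median-of-ratios and quantile scaling, and edgeR without a block changed no call of a member. From FPKM values limma called 0 members (CENPM at -0.72, adjusted p = 0.0881) and 31 genes, with 3 members and 1634 genes at an unadjusted p under 0.05. With the replicate block 5 members and 2965 genes were called, CENPH (-0.44), CENPI (-0.52), CENPL (-0.33) and CENPN (-0.44) being added, and edgeR with the block called 5 and 3047 (-0.44, -0.53, -0.34 and -0.43). DESeq2 called 3 and 522 (CENPI -0.52, CENPN -0.44). Leaving out 1 library gave 0 members and 3 to 21 genes with limma, CENPM lying from -0.85 to -0.69, with 4 to 5 members and 1224 to 1702 genes at an unadjusted p under 0.05. Leaving out replicate 1, 2 or 3 of both groups was added after seeing the data. Without the block it left 0 members and 44, 2 and 1 genes (CENPM -0.63, -0.87 and -0.84). At an unadjusted limma p under 0.05 it left 5, 4 and 4 members and 2015, 890 and 895 genes. With the block it gave 5, 4 and 5 members and 3835, 1414 and 1779 genes. CENPH was then at -0.29, -0.51 and -0.53, CENPI at -0.41, -0.52 and -0.64, CENPN at -0.37, -0.51 and -0.45, and CENPL, called in 2 of the 3, at -0.23 and -0.42. The cause of these changes was not tested. The fewest reads behind a member's value were 200, for CENPK in no dox replicate 3.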
